A study of Mus musculus with 12 samples.

Results

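The phase II conjugation enzymes attach a polar group to a drug, a toxin or a hormone so that it can be excreted. They were chosen here by gene symbol, as the glutathione S-transferases (GST, classes alpha, kappa, mu, omega, pi and theta), the microsomal glutathione S-transferases (MGST), the UDP-glucuronosyltransferases (UGT) and the sulfotransferases (SULT). Of 68 genes with such a symbol, 4 pseudogenes and 18 genes with under 50 reads over all 12 libraries were left out, and 46 of the 37681 genes in the table remained. These were 18 GST, 3 MGST, 9 UGT1, 6 UGT2, 2 UGT3 and 8 SULT genes. Of the 18 genes left out for low reads, 5 had no read at all.

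The study compared kidney cortex of TRACK mice with that of their wild-type littermates to learn which transcripts a constitutively active HIF1α changes. TRACK mice (TG+, labelled TRACK/gamma-HIF1alphaM3 TG+) carry a transgene for an always-on HIF1α variant that only proximal tubule cells are meant to make. The line was built to model clear cell kidney cancer, and the TG- littermates lack the transgene. There were 3 TG+ mice (43-29, 43-49 and 43-75) and 3 TG- mice (43-26, 43-50 and 43-76), all untreated C57BL/6 males of 18 months. A thin outer slice of cortex from each of the 2 kidneys of a mouse gave 1 library, with 21888584 to 33704850 counted reads per library. The transgene is made in the proximal tubule, whereas the slice holds every cell type of the cortex, so a gene's level is an average over them. Levels are given as CPM, the reads of both kidneys scaled to a common library size after TMM normalization. Levels per length, used for sums and shares within a family, are the RPKM of the deposited table. The length behind it is not given, and the length implied by CPM and RPKM was 0.33 to 3.84 times the exon length in GENCODE M21, within 10% of it for 14 of the 46 members. CPM per kilobase of M21 exon, an alternative chosen after seeing the data, therefore stands beside the RPKM where it changes what is said. Unless a different rule is named, a gene is called higher or lower where edgeR's quasi-likelihood test over all genes gave an adjusted p below 0.05, and the study's own threshold is an adjusted p below 0.01 with a change above 2-fold or below 0.5-fold. With 3 against 3 mice an exact permutation test of 1 gene cannot give a 2-sided p under 0.1.

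GSTs join the tripeptide glutathione to electrophiles, and the product is trimmed at the brush border and acetylated in the tubule cell to a mercapturic acid for the urine. UGTs of the first 2 families move glucuronic acid from UDP-glucuronic acid onto phenols, bilirubin, steroids and many drugs, and SULTs move a sulfate group from the donor PAPS. In the kidney these enzymes sit mainly in the proximal tubule, beside the transporters that secrete the conjugates. HIF1α acts through short DNA elements with the core ACGTG or GCGTG, and the transcription factor NRF2, which controls many GST genes, through the antioxidant response element.

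Promoters of 4 genes are shown because their genes are close relatives that lie near each other on 1 chromosome and because the results below turn on them. Gsta1 and Gsta2, on chromosome 9, were both higher in TG+ kidneys, whereas Ugt2b5 and Ugt2b38, on chromosome 5, differed in opposite directions. The call of Gsta1 was lost when any 1 mouse was left out. Each sequence has 250 bases before the annotated start and the first 10 after it, 5′ to 3′ on the strand of the gene (RefSeq, GRCm38.p6). Capitals mark GCGTG, a hypoxia response element core. No ACGTG and no antioxidant response element core TGACNNNGC, on either strand, is in these 4 stretches. They lie at chr9:78230419-78230678 on the plus strand (Gsta1), chr9:78347136-78347395 on the minus strand (Gsta2), chr5:87140331-87140590 on the minus strand (Ugt2b5) and chr5:87424194-87424453 on the minus strand (Ugt2b38).
Gsta1: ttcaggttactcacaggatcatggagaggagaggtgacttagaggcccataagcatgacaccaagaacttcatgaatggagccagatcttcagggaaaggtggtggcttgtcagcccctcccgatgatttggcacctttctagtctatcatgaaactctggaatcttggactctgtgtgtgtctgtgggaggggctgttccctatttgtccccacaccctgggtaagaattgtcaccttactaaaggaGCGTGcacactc
Gsta2: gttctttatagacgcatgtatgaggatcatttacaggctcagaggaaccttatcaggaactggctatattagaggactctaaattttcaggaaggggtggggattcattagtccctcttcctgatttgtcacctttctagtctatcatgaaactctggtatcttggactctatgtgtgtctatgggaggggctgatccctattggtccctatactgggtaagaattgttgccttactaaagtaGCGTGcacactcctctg
Ugt2b5: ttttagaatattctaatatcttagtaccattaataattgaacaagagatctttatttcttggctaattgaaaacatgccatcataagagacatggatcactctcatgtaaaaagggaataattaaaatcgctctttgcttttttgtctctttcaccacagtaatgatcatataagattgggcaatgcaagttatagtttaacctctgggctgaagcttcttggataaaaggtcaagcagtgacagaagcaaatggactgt
Ugt2b38: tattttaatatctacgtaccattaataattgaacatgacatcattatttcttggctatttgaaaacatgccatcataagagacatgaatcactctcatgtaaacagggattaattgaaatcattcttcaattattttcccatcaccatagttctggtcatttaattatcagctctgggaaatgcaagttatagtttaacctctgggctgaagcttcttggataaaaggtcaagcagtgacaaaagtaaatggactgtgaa
The Gsta1 and Gsta2 sequences were identical at 194 of 249 aligned bases (77.9%), and the GCGTG lies in a stretch that both share, from -2 to +3 of the Gsta1 start and from -7 to -3 of the Gsta2 start. The Ugt2b5 and Ugt2b38 sequences were identical at 222 of 250 aligned bases (88.8%).

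Of the 46 members, 44 had enough reads to be tested, and the other 2, Mgst2 and Ugt2b36, had 51 and 54 reads over all libraries. At the study threshold, 2 members were higher in TG+ kidneys, Gsta2 and Ugt2b5, and 0 were lower, whereas 3.77% of all 19399 genes tested were higher and 0.211% were lower. DESeq2 called 3 higher (Gstp3 as well) and 0 lower at the same threshold, and edgeR gave 19 lower members at an unadjusted p under 0.05, 0 of them below 0.5-fold. At an adjusted p below 0.05 with no limit on the fold change, 7 members were higher and 19 were lower, against 15.4% and 10.9% of all genes tested. The 19 include 9 rows of the Ugt1a gene, which repeat 1 measurement as described below. Counted once, Ugt1a leaves 11 lower members of 36. Without TG- mouse 43-50 neither Gsta2 (log2 fold change 0.98) nor Ugt2b5 (adjusted p = 0.0108 by edgeR) passed the study threshold, and Ugt2b5 also missed it without TG+ mouse 43-75 (adjusted p = 0.0148) or TG- mouse 43-76 (0.0195).

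The members that rose had low levels and those that fell were abundant. The 7 higher members (Gsta1, Gsta2, Gsta4, Gstp3, Sult2b1, Ugt2a3 and Ugt2b5) had mean levels of 0.233 to 14.6 CPM in TG- mice and rose by 21.4% to 231%. The 19 lower members had 40.2 to 1353 CPM and were at 0.61 to 0.86 of the TG- level. The calls of 2 of the 7 higher members, Gsta2 and Ugt2b5, and of 16 of the 19 lower ones held in all 14 alternatives described at the end. Among all genes tested with a mean of 10 CPM or more, 12.9% were higher and 18% were lower, and below 10 CPM 18.1% were higher and 2.91% were lower. Among the members at 10 CPM or more, 2 were higher and 19 lower of 29, or 2 higher and 10 lower of 20 without the Ugt1a rows. Below 10 CPM, 5 were higher and 0 lower of 15 tested by edgeR, with 0 lower at an unadjusted p under 0.05 and 3 higher and 0 lower by DESeq2. The median log2 fold change of the members tested was -0.15 (-0.04 without the Ugt1a rows), beside 0.01 over all genes. At 10 CPM or more it was -0.38 for the members (-0.19 without the Ugt1a rows), beside -0.05 over all genes. All 3 TG+ mice were above all 3 TG- mice for 7 of the members tested and below them for 22 (13 without the Ugt1a rows), compared with 23.4% and 20.8% of all genes.

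**Figure D1:**
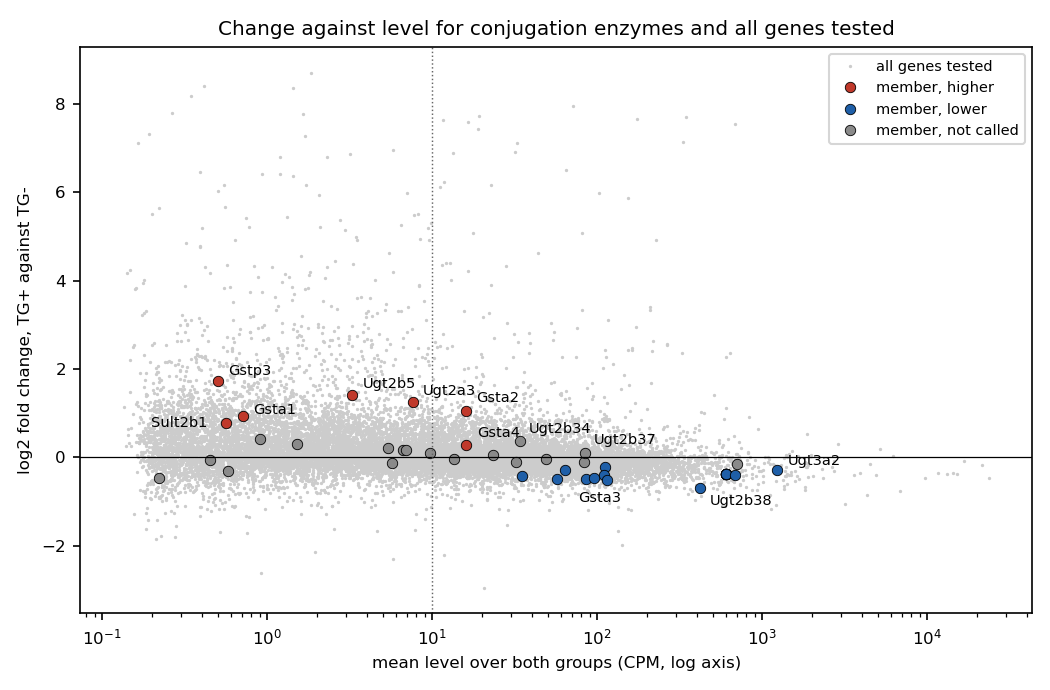
Log2 fold change (TG+ against TG-) on the vertical axis against the mean level in CPM, on a log axis, with all 19399 genes tested in grey and the 44 members tested as larger points coloured by their call at an adjusted p below 0.05; the dotted line marks 10 CPM. The 5 members left of the line that were called are all higher, and to its right 2 are higher and 19 lower.

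Markers of the cell types in the slice differed between the groups as well, and their counts at an adjusted p below 0.05 stand beside 15.4% higher and 10.9% lower of all genes tested. Of 16 proximal tubule markers, 10 were lower and 0 higher, with a median log2 fold change of -0.41, and none was at 0 in any group. Their summed level was 43402 to 46741 CPM in TG- mice and 33179 to 36450 CPM in TG+ mice, so the groups did not overlap. Of 10 markers of other nephron segments and the glomerulus, edgeR called 0 (2 higher at an unadjusted p under 0.05, and 1 higher by DESeq2), with a median of 0.05. Markers of immune cells (6 of 9 higher), endothelium (6 of 6), stroma (4 of 6) and tubule injury (6 of 7) were higher and 0 of them lower, and none was at 0. The summed level of the immune list was 36.6 to 68.5 CPM in TG- and 87.4 to 106 CPM in TG+ mice, and that of the endothelial list 293 to 386 and 499 to 537 CPM. For stroma the sums were 119.5 to 142 and 184 to 253 CPM, and for tubule injury 15.9 to 39.2 and 54.4 to 98.5 CPM, again without overlap. Of 7 liver markers tested, 2 were higher (Ttr and Apoa1) and 0 lower. Log2 fold changes were below 0 for 4 of the 7, with a median of -0.02. The summed level of the liver list was 42.9 to 64.9 CPM in TG- and 98.7 to 121 CPM in TG+ mice. Ttr alone had means of 32.9 CPM in TG- and 88.2 CPM in TG+ mice. Of 6 intestinal markers, Cdx2 and Fabp2 were at 0 in all mice and Muc2 and Krt20 were higher. Krt20 also stands in the tubule injury list. The summed level was 229 to 251 CPM in TG- and 221 to 309 CPM in TG+ mice. Most of it was Vil1, with means of 232 and 222 CPM and no call, whereas Muc2 had 0.22 and 37.7 CPM. The part of these cell type differences in the results for the conjugation enzymes was not tested, and in such tissue fewer cells of a type and less RNA per cell cannot be told apart. The HIF targets Car9 and Slc2a1 followed the labels: Car9 was at 11.7, 14.8 and 17.6 CPM in TG- and 166, 122 and 155 CPM in TG+ mice, and Slc2a1 at 42.4, 34.5 and 39.2 CPM in TG- and 225, 124 and 212 CPM in TG+ mice. Mouse Hif1a itself was at 104 and 95.7 CPM, with an adjusted p of 0.343 by edgeR's quasi-likelihood test.

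**Figure D2:**
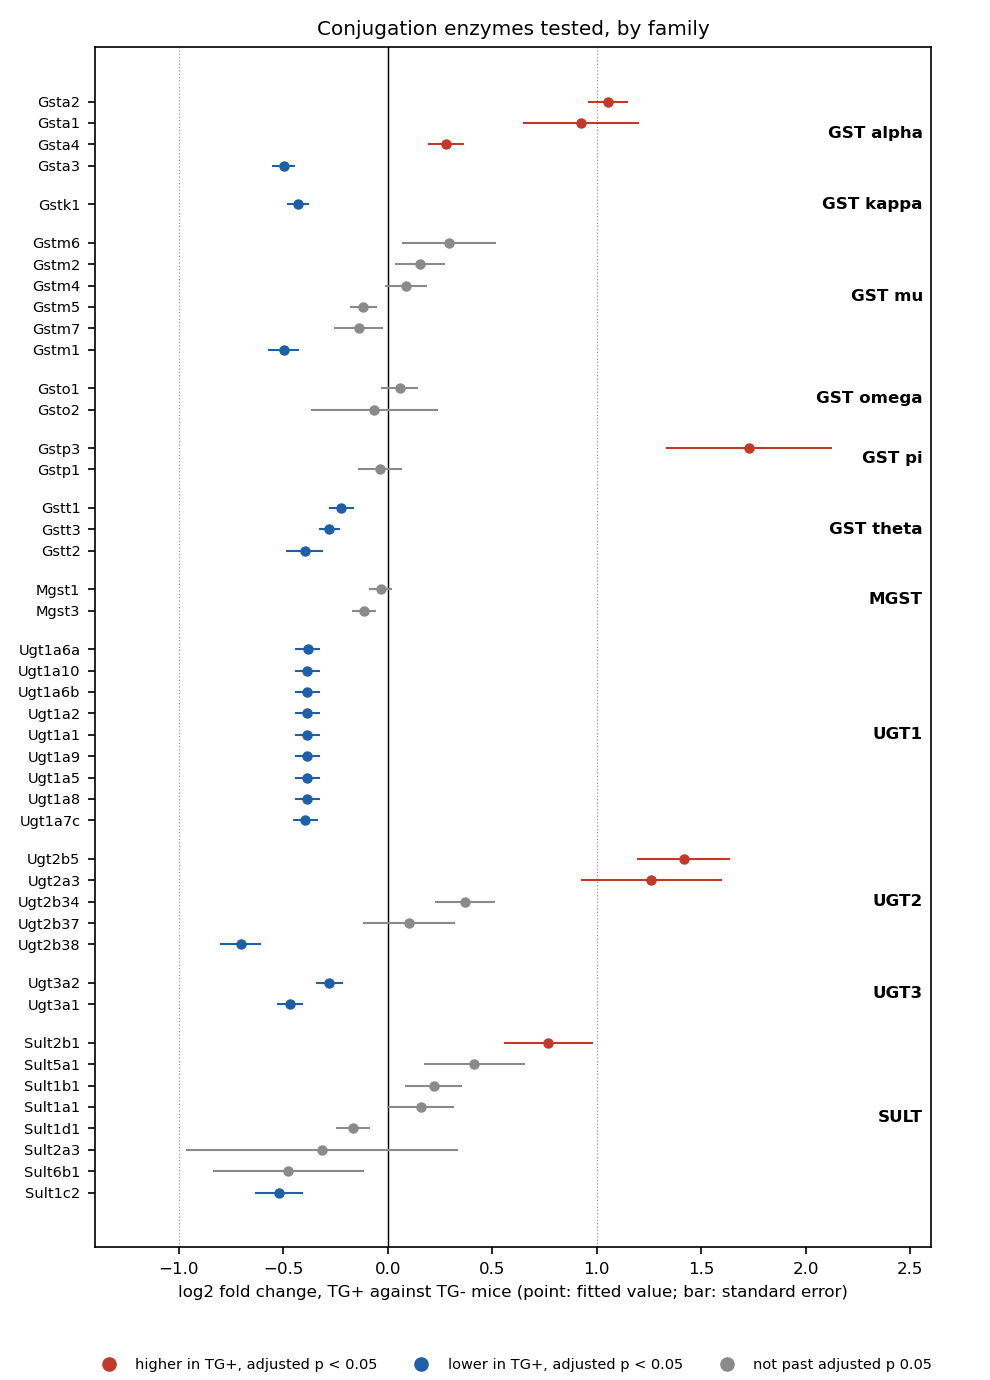
Fitted log2 fold change (TG+ against TG- mice, horizontal axis) of the 44 members tested, grouped by enzyme family, with bars of 1 standard error and dotted lines at 2-fold. The GST alpha and UGT2 families hold members called in both directions, whereas the theta GSTs, UGT1 and UGT3 lie to the left of 0.

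The alpha GSTs, a class known for its abundance in liver, changed in both directions. Gsta2, which also reduces organic peroxides, was at 11.6, 9.35 and 10.2 CPM in TG- mice 43-26, 43-50 and 43-76 and at 22.7, 20.2 and 21.6 CPM in TG+ mice 43-29, 43-49 and 43-75. The lowest TG+ mouse was well above the highest TG- mouse. Its log2 fold change was 1.05 (SE 0.09, adjusted p = 0.000292 by edgeR), the smallest adjusted p among the members. Gsta1 was at 0.565, 0.298 and 0.614 CPM in TG- and 1.05, 0.864 and 0.876 CPM in TG+ mice, 17 to 52 reads per mouse. The groups did not overlap, and the log2 fold change was 0.93 (SE 0.28, adjusted p = 0.0437), but the call was lost when any 1 mouse was left out (adjusted p 0.0589 to 0.116), with DESeq2 (0.0565) and with kidney 2 alone (0.151). Gsta4, which conjugates the lipid peroxidation product 4-hydroxynonenal, was at 14.4, 15.1 and 14.2 CPM in TG- and 16.8, 19.7 and 16.6 CPM in TG+ mice (log2 fold change 0.28, SE 0.08, adjusted p = 0.0439, and 0.0594 to 0.133 when any 1 mouse was left out, 0.0544 with no filter and 0.152 with kidney 1 alone). In contrast, Gsta3, the alpha GST known in mice for detoxifying aflatoxin epoxide, was at 101.2, 105.7 and 95.3 CPM in TG- and 71.7, 70.8 and 71.5 CPM in TG+ mice. The TG+ mice lay within 1 CPM of each other and all below the TG- mice, with a log2 fold change of -0.50 (SE 0.06, adjusted p = 0.000756).

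By the deposited RPKM, the 4 alpha genes summed to 56.2 ± 2.07 in TG- and 52.0 ± 1.23 in TG+ mice (mean ± SD, n = 3 mice), but per kilobase of M21 exon to 44.0 ± 1.44 and 49.6 ± 0.694 CPM, so the direction of the sum turned with the length used. Of the RPKM sum, Gsta3 made up 65.0% ± 0.890 in TG- and 48.7% ± 1.46 in TG+ mice, Gsta4 27.5% ± 0.493 and 35.0% ± 2.67, and Gsta2 6.87% ± 0.803 and 15.1% ± 1.15. The groups did not overlap for any of these shares, and the exact permutation p is then 0.1, the smallest possible. Per kilobase of M21 exon, Gsta3 made up 52.7% ± 1.70 and 33.1% ± 0.550, again without overlap, and Gsta2 17.8% to 21.8% in TG- and 34.4% to 38.5% in TG+ mice, whereas Gsta4 was at 26.1% ± 0.835 and 28.1% ± 2.64 with overlap. Gsta1 and Gsta2 are close copies: 90.3% of the 51-base words in Gsta1 transcripts occur in another gene, among them Gsta2, Gm3776 and Gm10639, and 49% of those of Gsta2. How reads that fit several genes were counted is not given in the sources used here, so the values of Gsta1 and Gsta2 are uncertain against each other. Gm10639 was also higher, 0.588 ± 0.056 CPM in TG- and 1.41 ± 0.058 CPM in TG+ mice. No 51-base word of Gsta4 and 0.205% of those of Gsta3 occur in another gene.

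**Figure D3:**
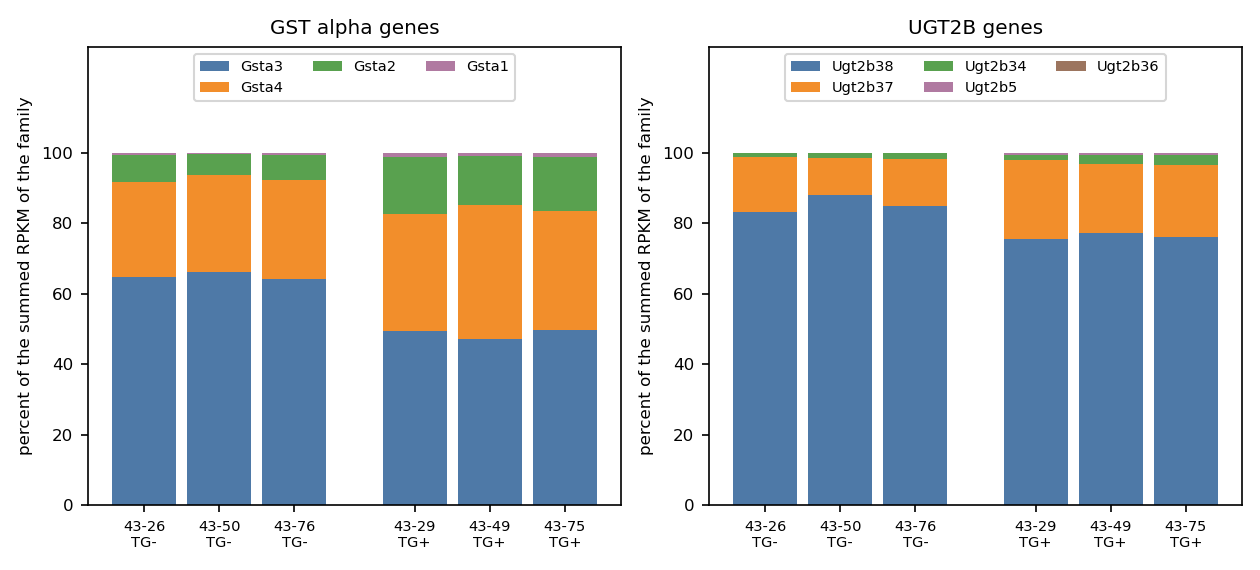
Share of each gene, in percent, in the summed RPKM of the alpha GSTs (left) and of the UGT2B genes (right), with 1 stacked bar per mouse and the TG- mice before the TG+ mice. Gsta3 and Ugt2b38 take a smaller share in each TG+ mouse than in any TG- mouse, 48.7% against 65.0% and 76.3% against 85.4% on average.

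Among the theta GSTs, which handle small halogenated compounds and sulfate esters, all 3 genes fell. Gstt2, with the highest deposited RPKM among the GSTs (92.9 in TG-, but below Gstt1 per kilobase of M21 exon, 30.3 against 78.0 CPM), was at 113, 128 and 136 CPM in TG- and 97.0, 86.0 and 103 CPM in TG+ mice, with a log2 fold change of -0.40 (SE 0.09, adjusted p = 0.0156). Gstt3 was at 69.7, 69.1 and 70.6 CPM in TG- and 58.3, 55.1 and 59.2 CPM in TG+ mice, a log2 fold change of -0.28 (SE 0.05, adjusted p = 0.00648). Gstt1 was at 119.2 ± 7.96 CPM in TG- and 102 ± 2.13 CPM in TG+ mice (log2 fold change -0.22, SE 0.06, adjusted p = 0.0343). The call of Gstt2 was lost without TG- mouse 43-76 (adjusted p = 0.0594 by edgeR) and that of Gstt1 without any mouse but 43-26 (0.0567 to 0.108) and with scaling by library size alone (0.222). Gstt3 shares 13.6% of its exon bases with Gm20441 on the same strand, which was lower too (log2 fold change -0.41, SE 0.07). By the deposited RPKM, the theta genes together were at 142, 159 and 163 RPKM in TG- and 121, 112 and 126 RPKM in TG+ mice.

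Gstk1, the only kappa GST, is an enzyme of mitochondria and peroxisomes. It was at 39.1, 41.2 and 40.4 CPM in TG- and 29.4, 30.9 and 29.3 CPM in TG+ mice. The ranges within a group were far narrower than the gap between groups, and the log2 fold change was -0.43 (SE 0.05, adjusted p = 0.00129).

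Of the 6 mu GSTs, 1 fell and 5 were not called. Gstm1, with the highest deposited RPKM of them (24.1 in TG-, but below Gstm5 per kilobase of M21 exon, 45.5 against 68.0 CPM), was at 72.4, 61.2 and 67.5 CPM in TG- and 47.2, 50.0 and 45.1 CPM in TG+ mice (log2 fold change -0.50, SE 0.07, adjusted p = 0.00297). Some 18.5% of its 51-base words occur in other genes, mainly in relatives of the mu class. Gstm5 had more reads, 86.9 ± 2.42 CPM in TG- and 80.2 ± 5.81 CPM in TG+ mice, and did not pass (log2 fold change -0.12, SE 0.06, adjusted p = 0.229). Gstm5 overlaps a transcript of the opposite strand over 13.9% of its exon bases. The other 4, Gstm2, Gstm4, Gstm6 and Gstm7, had 1.35 to 9.40 CPM in TG- mice, overlapped between groups and had log2 fold changes of -0.14 to 0.29.

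The pi GSTs are represented by Gstp1, the common form, and Gstp3. Gstp1 was at 13.7, 15.8 and 11.9 CPM in TG- and 13.4, 14.1 and 12.9 CPM in TG+ mice, with a log2 fold change of -0.04 (SE 0.11, adjusted p = 0.831). Gstp3 was at 0.351, 0.123 and 0.225 CPM in TG- and 0.991, 0.511 and 0.817 CPM in TG+ mice, from 7 to 49 reads per mouse. The groups did not overlap, and its log2 fold change of 1.73 (SE 0.40, adjusted p = 0.0168) was the largest among the members but rests on few reads. The call was lost without TG- mouse 43-50 (adjusted p = 0.0503 by edgeR), TG+ mouse 43-75 (0.0531) or TG- mouse 43-76 (0.0610). With kidney 1 alone the log2 fold change was 1.12 (adjusted p = 0.108 by edgeR), and with kidney 2 alone it was 2.44 (0.00436). No 51-base word of Gstp3 occurs in another gene, whereas 33.5% of those of Gstp1 occur in Gstp2, which had 33 reads in all.

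The omega GSTs and the MGSTs showed no call, and 0 of their 4 genes tested passed an unadjusted p of 0.05. Gsto1, which reduces dehydroascorbate and methylated arsenic rather than conjugating, was at 22.8 ± 2.78 CPM in TG- and 23.7 ± 0.439 CPM in TG+ mice (log2 fold change 0.06, SE 0.09). Mgst1, a membrane enzyme of the endoplasmic reticulum and the outer mitochondrial membrane, was at 49.3 ± 0.998 and 48.2 ± 2.59 CPM (log2 fold change -0.03, SE 0.06). Mgst3, which also acts as a peroxidase, was at 32.8, 34.8 and 33.1 CPM in TG- and 31.8, 31.8 and 29.5 CPM in TG+ mice, below without overlap but not called (log2 fold change -0.11, SE 0.06, adjusted p = 0.190). DESeq2 called none of them either.

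Added over all 18 cytosolic and kappa GST genes, the deposited RPKM was 312, 329 and 329 in TG- and 264, 258 and 269 in TG+ mice. The group means differed by -18.4%, without overlap, and by -11.6% per kilobase of M21 exon, also without overlap. Gsta2 held 3.85 RPKM in TG- and 7.82 RPKM in TG+ mice.

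**Figure D4:**
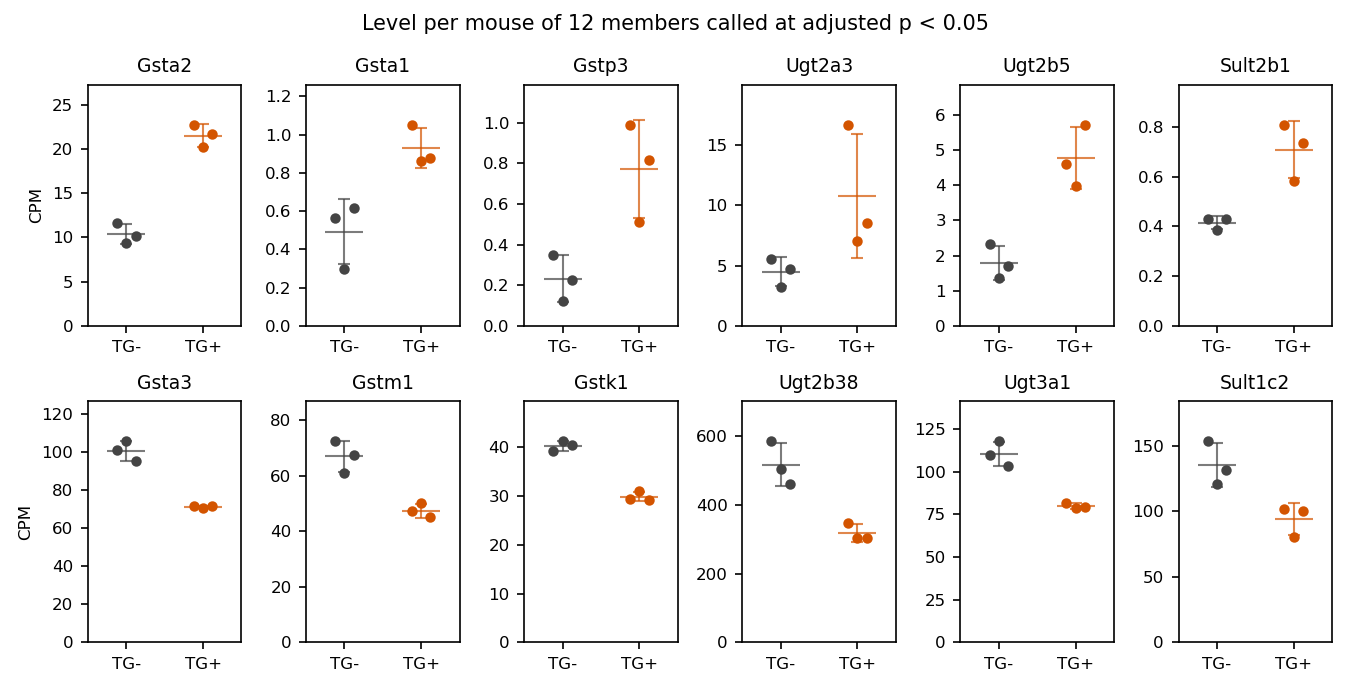
Levels in CPM (vertical axes, each from 0) in the 3 TG- and 3 TG+ mice for 12 members called at an adjusted p below 0.05, with 1 point per mouse, a line at the mean and bars of 1 SD. In the upper row, the members that were higher in TG+ mice; in the lower row, those that were lower, with no overlap between groups in any panel.

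The UGT1 family comes from a single gene in which alternative first exons are joined to shared last exons, and the first exon decides the substrate, bilirubin for Ugt1a1 and small phenols for Ugt1a6. The deposited table has 9 rows for it, and the rows are almost copies of each other. Ugt1a5 had the fewest reads, 188353 over all libraries, and 7 of the 9 rows, itself included, lay within 1% of that number. In total, the other 8 rows held 27561 reads more, of which Ugt1a7c held 24665 and Ugt1a6a 1890. Apart from these, a row exceeded the lowest by 8 to 381 reads. The table holds no reads by exon, so the surplus of a row cannot be assigned to its own first exon.

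**Figure D5:**
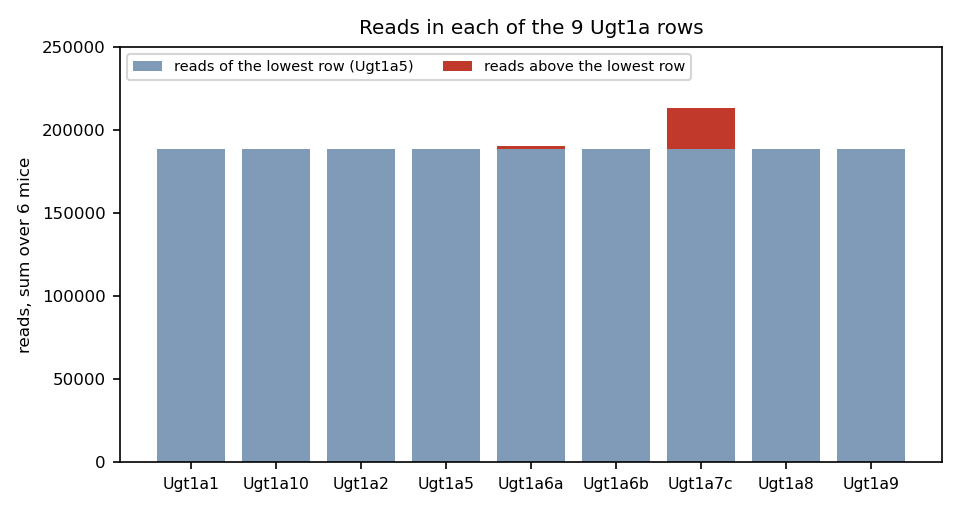
Reads summed over the 6 mice (vertical axis, from 0) in each of the 9 Ugt1a rows, split at the number in the lowest row, Ugt1a5 (188353). The rows other than Ugt1a7c, at 213018, and Ugt1a6a, at 190243, lie within 1% of the lowest.

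Since the rows share these reads, they give the level of the shared part and not of single isoforms, and that level was lower in TG+ mice. Ugt1a1 was at 669, 699 and 676 CPM in TG- and 547, 487 and 530.4 CPM in TG+ mice, with a log2 fold change of -0.38 (SE 0.06, adjusted p = 0.00350). The other rows had log2 fold changes of -0.38 to -0.39. The surplus reads of Ugt1a7c were 90.9 ± 5.25 CPM in TG- and 66.2 ± 2.51 CPM in TG+ mice, and those of Ugt1a6a were 4.80 to 7.80 CPM in TG- and 5.43 to 6.37 CPM in TG+ mice. Gm20528, annotated on the opposite strand and overlapping exons of each of these rows, had 73670 reads and the same log2 fold change of -0.38. Whether the counting used strand is not given in the sources used here. With nearly the same reads, the deposited RPKM of the rows in TG- mice ran from 49.3 (Ugt1a6a) to 314 (Ugt1a9), so the RPKM of a row cannot be read as the level of that isoform.

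UGT2 enzymes glucuronidate mainly steroids and bile acids, and several Ugt2b genes are known in mouse kidney. Ugt2b38, 85.4% ± 2.51 of the summed deposited RPKM of the UGT2B genes in TG- mice, was at 586, 506 and 462 CPM in TG- and 349, 303 and 303 CPM in TG+ mice. This was the largest fall among the members called, with a log2 fold change of -0.70 (SE 0.10, adjusted p = 0.00223), and its share was 76.3% ± 0.877 in TG+ mice. Ugt2b5 was at 2.32, 1.35 and 1.70 CPM in TG- and 4.61, 3.98 and 5.72 CPM in TG+ mice, from 77 to 287 reads per mouse. All TG+ mice were above all TG- mice, with a log2 fold change of 1.42 (SE 0.22, adjusted p = 0.00359). Of the 51-base words of Ugt2b5, 34.4% also occur in Ugt2b38, which had 15223 to 30068 reads per mouse, so the level of Ugt2b5 is uncertain where the counting could split such reads.

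Ugt2b37 was at 111.7, 59.9 and 72.6 CPM in TG- and 104, 76.9 and 81.2 CPM in TG+ mice. TG- mouse 43-26 stood above the other TG- mice, and the groups overlapped (log2 fold change 0.10, SE 0.22, adjusted p = 0.774). Its share of the UGT2B sum was 13.2% ± 2.70 in TG- and 20.7% ± 1.49 in TG+ mice, without overlap (exact permutation p = 0.1). Ugt2b34 was at 26.3, 31.0 and 31.9 CPM in TG- and 29.7, 42.4 and 43.1 CPM in TG+ mice, with a log2 fold change of 0.37 (SE 0.15, adjusted p = 0.0992). Without TG+ mouse 43-29, the only TG+ mouse inside the TG- range, the value was 0.51 with an adjusted p of 0.0103 by edgeR. Ugt2a3, known from liver and gut for bile acids, was at 5.58, 3.20 and 4.69 CPM in TG- and 16.7, 7.07 and 8.54 CPM in TG+ mice. The groups did not overlap, but TG+ mouse 43-29 stood apart, and the log2 fold change of 1.26 (SE 0.34, adjusted p = 0.0292) was 0.79 without it (adjusted p = 0.0452 by edgeR). Without TG- mouse 43-50 or 43-76 the adjusted p was 0.0902 or 0.0818. By the deposited RPKM, the UGT2 genes summed to 327 ± 46.6 RPKM in TG- and 224 ± 22.1 RPKM in TG+ mice.

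The UGT3 enzymes use sugars other than glucuronic acid. Ugt3a2 had the most reads of all members, at 1279.8, 1441 and 1337 CPM in TG- and 1122, 1059.7 and 1165 CPM in TG+ mice, with a log2 fold change of -0.28 (SE 0.07, adjusted p = 0.0183, and 0.0591 without TG- mouse 43-76). Ugt3a1, which transfers N-acetylglucosamine, was at 109.9, 117.8 and 103 CPM in TG- and 81.7, 78.4 and 79.0 CPM in TG+ mice, with a log2 fold change of -0.47 (SE 0.06, adjusted p = 0.00166). Both genes separated the groups, and together they held 295 ± 16.5 deposited RPKM in TG- and 233 ± 10.4 RPKM in TG+ mice.

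Of the 8 SULT genes, 1 was higher, 1 was lower and 6 were not called. Sult1d1, which sulfates catecholamines in rodents, made up 70.3% of the deposited SULT RPKM in TG- mice and was at 701, 813 and 714 CPM in TG- and 697, 684 and 606 CPM in TG+ mice. The groups lay next to each other without overlap, and the log2 fold change of -0.16 (SE 0.08, adjusted p = 0.175) did not pass. Sult1c2, a phenol sulfotransferase, was at 153, 120.4 and 131 CPM in TG- and 102, 80.4 and 100.1 CPM in TG+ mice (log2 fold change -0.52, SE 0.12, adjusted p = 0.0148). Sult2b1, which sulfates cholesterol, was at 0.429, 0.385 and 0.430 CPM in TG- and 0.809, 0.582 and 0.737 CPM in TG+ mice, 21 to 40 reads per mouse (log2 fold change 0.77, SE 0.21, adjusted p = 0.0335). This call held in 1 of the 6 fits that left out a mouse, that without TG+ mouse 43-49 (0.0762 to 0.110 in the others), and not with DESeq2 (0.128). Lmtk3 lies across 6.15% of its exon bases on the opposite strand. The remaining 5 genes (Sult1a1, Sult1b1, Sult2a3, Sult5a1 and Sult6b1) had 0.257 to 6.53 CPM in TG- mice and overlapped between groups. The SULT2A genes, the hydroxysteroid sulfotransferases of liver, were close to absent: Sult2a3 had 177 reads over 12 libraries, and the others had 3 reads or fewer.

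Among the members with 10 CPM or more, the levels in both kidneys of a mouse were close. Over these 29 members, the largest log2 ratio between the kidneys of any mouse had a median of 0.14. It reached 0.47, for Ugt2b34 in TG+ mouse 43-49. The 29 include the 9 Ugt1a rows, which repeat 1 measurement and each had a largest ratio of 0.14, so they weigh on this median. Over the 17 members below 10 CPM the largest ratio had a median of 0.58 and reached 1.57, for Mgst2. It was 0.69 for Gsta1 and 0.71 for Gstp3 and Sult2b1, which were called higher.

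Promoter windows, 250 bases before to 50 after a start, were matched by symbol for 42 of the 46 members. A hypoxia element core (ACGTG or GCGTG, either strand) was in a window of 14 of these 42 members. Counted by window, 16 of the 52 windows of members held one, beside 43.8% of all 32851 windows. By core, 19.6% of all windows held ACGTG and 32.4% held GCGTG. Of the 6 higher members with a window, 4 held one (Gsta1, Gsta2, Gstp3 and Sult2b1), as did 4 of the 16 lower members. TGACNNNGC, in 12.4% of all windows and 4 of the 52 windows of members, was in 4 members, Gsta3, Gstm5, Gstm7 and Mgst1. A match is a string of letters and not a bound site.

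A list of 24 other genes of conjugation and related reactions, among them methyl, acyl and glutathione transferases, had 7 lower (29.2%) and 2 higher (8.33%), with a median log2 fold change of -0.15, and 8 lower and 2 higher by DESeq2. The shares of these and the following lists stand beside 10.9% lower and 15.4% higher of all genes tested, or 18% and 12.9% of those with 10 CPM or more. Inmt, an indole N-methyltransferase, fell from 814 to 378 CPM (log2 fold change -1.11, SE 0.13, adjusted p = 0.000846 by edgeR) and passed the study threshold, which no conjugation enzyme of the families above did in that direction. Acsm2, which activates acids such as benzoate for glycine conjugation, fell from 5537 to 3081 CPM (log2 fold change -0.85), and Glyat, which adds the glycine, from 817 to 618 CPM (-0.40). Gstz1, a GST of tyrosine breakdown, fell from 289 to 201 CPM (-0.52), and Tpmt (-0.50), Comtd1 (-0.37) and Tst (-0.35) were lower too. Alox5ap (0.92) and Ptges (0.29), relatives of the MGSTs that take part in making leukotrienes and prostaglandin, were higher.

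Of 10 genes that supply cofactors, all above 10 CPM, 3 were lower and 0 higher by edgeR and by DESeq2, and edgeR gave 1 higher at an unadjusted p under 0.05. Papss2, which makes the sulfate donor PAPS, fell from 517 to 264 CPM (log2 fold change -0.97, SE 0.07, adjusted p = 0.000125 by edgeR), whereas Papss1 was at 114 and 129.6 CPM (log2 fold change 0.19, adjusted p = 0.131). Bpnt1, which removes the spent donor, fell from 380.0 to 292 CPM (-0.38), and Slc35d1, a carrier of UDP-glucuronic acid, fell by 0.24 on the log2 scale. Ugdh, which makes UDP-glucuronic acid, was at 87.2 and 95.4 CPM and was not called (log2 fold change 0.13, adjusted p = 0.258). Of 5 deconjugating genes tested, 2 were lower, Arsb (-0.34) and Sumf2 (-0.29), and 0 were higher. Among the rest, Sumf1 and the β-glucuronidase gene Gusb, had log2 fold changes of -0.10 and 0.02.

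Of 22 genes of glutathione synthesis, recycling and breakdown, mercapturate processing and related reactions, 5 were lower (22.7%) and 3 higher (13.6%). The median log2 fold change was -0.07. The 5 lower ones all had means above 10 CPM, where 18% of all genes tested were lower and 12.9% higher. The 3 higher ones lay below 10 CPM, where 18.1% were higher and 2.91% lower. DESeq2 called 6 lower and 3 higher. The lower ones were Nat8, the acetyltransferase of the last mercapturate step (log2 fold change -0.62), the aminoacylases Acy1 (-0.75) and Acy3 (-0.42), which remove acetyl groups, glutathione reductase Gsr (-0.44) and Ggt6 (-0.57). Chac1, which degrades glutathione, rose from 0.882 to 5.29 CPM (2.58), and Slc7a11, the cystine importer, from 2.42 to 5.82 CPM (1.26), both past the study threshold, and Nat8l, which makes N-acetylaspartate, was higher as well (1.17). The synthesis genes Gclc (0.66, SE 0.24, adjusted p = 0.0821 by edgeR), Gclm (0.03) and Gss (-0.02) were not called.

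Of 9 efflux pumps that carry conjugates out of the cell, 4 were lower and 2 higher by edgeR, and 4 were lower and 4 higher by DESeq2 and at an unadjusted p under 0.05, with a median of 0.19. Abcc2 (-0.47), Abcg2 (-0.45), Abcc5 (-0.25) and Abcc6 (-0.98) were lower, and Abcb1b rose from 6.83 to 17.1 CPM (1.33) and Abcc1 by 0.26. Abcg2, at 470.4 CPM in TG- mice, had the most reads of the list. Of 15 regulators of these enzymes, transcription factors and the NRF2 inhibitor Keap1, 5 were lower (33.3%) by edgeR and 8 by DESeq2, and 2 were higher (13.3%) by both. The lower ones were Rxra (-0.44), Ppara (-0.55), Hnf4a (-0.33), Esrra (-0.42) and Esr1 (-0.30), and the higher ones Ahr (0.38) and Keap1 (0.32), with a median of -0.29 over the list. Nfe2l2, which encodes NRF2, was at 121 and 114 CPM (-0.09, adjusted p = 0.284 by edgeR).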

How the data were processed

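RNA from kidney cortex was measured by RNAseq in 12 libraries, 2 kidneys of each of 3 TG+ and 3 TG- mice. The authors sequenced 51-bp single-end reads (TruSeq libraries, HiSeq2000), analysed them mainly with the Tuxedo tools and aligned to mm9 according to the submitters' processing notes. The counting program, its annotation and its use of strand are not given in the sources used here. The authors deposited a table with the read count of each Ensembl gene in each library, without normalization. They also deposited RPKM values, which the header marks BUQ, a term it does not explain, and which were used here only for family sums, shares and levels per length, as the mean of both kidneys, and whose divisor is not given. The 12 columns of log2 RPKM and the authors' fold changes, p-values and q-values were not used.

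Counts were summed over the kidneys of a mouse, because 2 libraries of 1 mouse are not independent, filtered with filterByExpr, scaled with TMM factors (0.944 to 1.07) and compared between groups by the quasi-likelihood F test of edgeR 4.0.16 (R 4.3.3). The p-values of the 19399 genes kept were adjusted by the Benjamini-Hochberg method. SE is the absolute log2 fold change over the square root of F. The procedure was checked on simulated data. Symbols came from GENCODE M21, matched by identifier for 32642 genes, and shared 51-base words and exon overlaps from its transcripts. Promoters came from RefSeq (GRCm38.p6), a build other than mm9, so coordinates are given for the promoter windows only, in the RefSeq build. Members named are those past either threshold, those of highest deposited RPKM and the most changed of each family. Genes of the other lists are named when past a threshold or of highest RPKM, and a few more (Papss1, Ugdh, Gclc, Gclm, Gss, Sumf1, Gusb and Nfe2l2) after their values were seen. Members and lists were chosen with earlier results of these data known. Alternatives were DESeq2 1.42.0, library size alone, upper-quartile factors, no filter, each kidney as a library, 1 kidney only, a block for mouse pairs, other thresholds, leaving out each mouse and leaving out the Ugt1a rows. CPM per kilobase of M21 exon in place of RPKM was added after seeing the data. Python 3.11.15 with pandas 2.3.3 and matplotlib 3.10.9 made tables and plots.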

Additional observations from a re-analysis of the deposited data

How the results depend on the processing

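The 2 members higher at the study threshold became 4 with each kidney as its own library (6 against 6 libraries that are not independent). They became 4 with the 2-fold limit at an adjusted p of 0.05. With a block for mouse pairs they were 4 (Gstp3 and Ugt2a3 as well, adjusted p 0.00407 and 0.00229 by edgeR). With kidney 1 alone 0 passed and with kidney 2 alone 3. When a mouse was left out 0 to 2 passed (0 without TG- mouse 43-50, 1 without TG+ mouse 43-75 or TG- mouse 43-76). Of the members lower, 15 passed an adjusted p of 0.01 with no fold limit. At an adjusted p of 0.05, the 7 higher members were 2 to 5 when a mouse was left out (2 without TG- mouse 43-50 or 43-76), and the 19 lower members were 16 to 19 then and 10 without the Ugt1a rows. The median log2 fold change of the members was -0.032 with library size alone, where the median of all genes was 0.132 in place of 0.012, -0.038 without the Ugt1a rows and -0.212 to -0.125 when a mouse was left out. No member called changed sign in any alternative. The calls of 2 of the 7 higher members, Gsta2 and Ugt2b5, and of 16 of the 19 lower ones (7 of 10 without the Ugt1a rows) held in all 14 alternatives. Gsta1 and Gsta4 lost theirs in 8 alternatives each, among them every fit that left out a mouse, Gstt1 in 7 alternatives, Gstt2 without TG- mouse 43-76 and Ugt3a2 with library size alone or without that mouse. Ugt2a3 lost it without TG- mouse 43-50 or 43-76, Gstp3 in 4 and Sult2b1 in 7 alternatives. The pairs are listed only in the name of the table, and the deviations of paired mice correlated at 0.283, 0.307 and -0.0599, so the numbers were not taken as pairs. With the block, 8 members were higher (Ugt2b34 as well) and 19 lower at an adjusted p of 0.05. With CPM per kilobase of M21 exon in place of the deposited RPKM, the log2 ratio (TG+ over TG-) of the alpha GST sum was 0.17 in place of -0.11, and no other family sum changed direction. The cause of these changes was not tested. Members under 1 CPM, such as Gstp3 with 7 reads in 1 mouse, rest on few reads.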
